A study of Mus musculus with 10 samples.

Results

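Solitary RNA polymerase III (Pol III) loci are sites bound by Pol III that stand alone on their chromosome, with no other Pol III site within 200 kb. They were found by merging the autosomal peaks of 5 chromatin immunoprecipitation sequencing (ChIP-seq) peak lists wherever peaks shared at least 1 bp, and by keeping each merged locus whose nearest neighbour, measured edge to edge, was more than 200 kb away. The members were thus chosen by the positions of the called peaks, that is by measured values, and not by an annotation. The lists were those of the subunits POLR3C and POLR3GL in mouse embryonic stem (ES) cells and of POLR3C, POLR3G and POLR3GL in primary mouse embryonic fibroblasts (MEFs). This gave 105 solitary loci among 367 merged loci, and they held 287 of the 1255 autosomal peaks of the 5 lists. The remaining 262 loci had a neighbour within the limit.

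Pol III makes short non-coding RNAs, among them tRNAs and 5S rRNA, and many of its genes lie in groups along the chromosomes. Other Pol III genes stand by themselves. POLR3C is a subunit of the enzyme that takes part in starting transcription, and it sits in a subcomplex with either POLR3G or POLR3GL, paralogous proteins that define alternative forms of Pol III. In mouse and human cells POLR3G is known as the form enriched in pluripotent stem cells, while POLR3GL is widely expressed. A POLR3C peak therefore marks either form, while a POLR3G or POLR3GL peak marks the form with that subunit. Both can be called at the same locus, so these calls do not assign a locus to a single form.

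The cells were ES-E14TG2a, an established mouse ES line, and MEFs isolated from E12.5 embryos and kept for 3 to 5 passages. Both were unmodified and untreated as far as the labels say, and were fixed at 80% confluence. Antibodies made in house to POLR3C, POLR3G or POLR3GL, and one recognising RNA polymerase II (Pol II), were each used once per cell type, so each list comes from 1 library and no value has a replicate error. The ES cells are 1 line, and the labels do not say how many embryos gave the MEFs. All positions are on the mouse build mm9, and no gene name was attached to any locus because the annotation at hand is for another build.

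Each peak carries 1 score given by the authors, whose scale is not stated. Scores were therefore turned into a percentile within their own list, where 100 is the top of the list, and raw scores are compared only within a list. The 5 lists held 317 (POLR3C, ES cells), 243 (POLR3GL, ES cells), 275 (POLR3C, MEFs), 177 (POLR3G, MEFs) and 264 (POLR3GL, MEFs) peaks before the sex chromosomes and other sequences were set aside. The same peaks that define the loci also give their calls and scores, so subunit calls, ranks and agreement between cell types are described without a test. The Pol II lists and the ES cell POLR3G list were not used to choose the loci. Intervals are exact (Clopper-Pearson) 95% intervals for counting error over loci only, since loci of 1 library are not replicates and neighbouring loci are not independent.

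The solitary loci were spread over all 19 autosomes. Their distance to the nearest other locus had a median of 3.60 Mb and reached from 0.201 to 50.6 Mb. It was between 0.2 and 1 Mb at 21 loci, between 1 and 5 Mb at 39 and above 5 Mb at 45, while the other loci had a median distance of 0.818 kb. Chromosomes 4, 7, 9 and 11 held 9 solitary loci each. These were 9 of the 11 loci on chromosome 4, but 9 of 45 on chromosome 11. On chromosome 13, where 101 loci lay, 2 were solitary. Every locus on chromosomes 15, 16 and 18 was solitary, with 3, 2 and 4 loci.

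The most remote locus was chr12:3109925-3110138, 50.6 Mb from the next, and it had a POLR3C peak in ES cells with a score of 533 as its only peak. The loci at chr15:57807468-57807723 and chr12:112083455-112083738, 41.0 and 40.0 Mb from their neighbours, were called by all 5 lists. Remoteness was thus found at a locus with a single low peak and at loci with a full set. The limit of 200 kb lay between loci with few lists just inside it and loci with 1 or all 5 lists just outside. Just inside it were chr12:70260473-70260696 (201 kb from its neighbour, a MEF POLR3C peak only), chr11:116802208-116802421 (236 kb, an ES cell POLR3C peak only) and chr14:51427008-51427288 (256 kb, POLR3C in both cell types). Just outside were chr9:78219489-78219702 and chr9:78023047-78023270, which are each other's neighbours at 196 kb, and chr6:47928883-47929190 at 191 kb. The first of these had 1 list and the others had all 5.

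**Figure D1:**
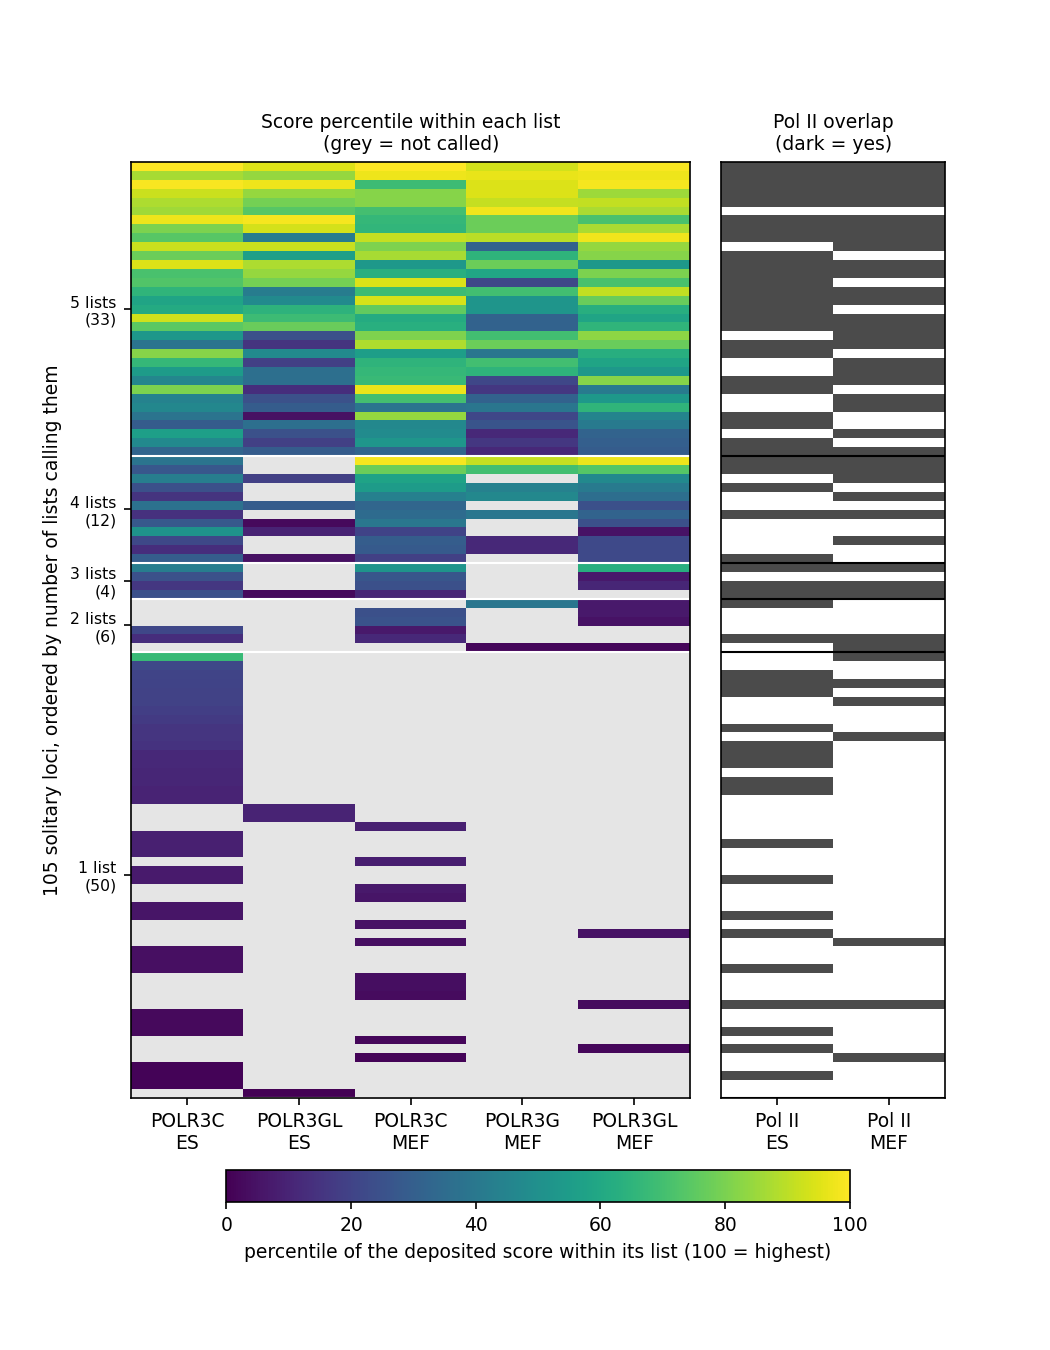
Score percentile within each of the 5 Pol III lists (columns) at each of the 105 solitary loci (1 line per locus), with overlap with a Pol II peak in ES cells and MEFs in the narrow panel at the right. Grey marks a locus that a list did not call; a block of 45 loci has 4 or 5 lists filled, and a block of 50 has a single list.

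Solitary loci fell into a group called by nearly every list and a group called by only 1. All 5 lists called 33 of them (31.4%, 22.7 to 41.2%) and 4 lists called 12, whereas 50 (47.6%, 37.8 to 57.6%) were called by 1 list. Between these ends lay 6 loci with 2 lists and 4 with 3. Over all 367 loci, 24.3% were called by 1 list and 39.5% by 5. Among the other loci, 39 of 262 (14.9%, 10.8 to 19.8%) had 1 list and 112 (42.7%, 36.7 to 49.0%) had 5. With the other loci of chromosome 13 set aside, the share with 1 list was 19.6% and the share with 5 was 42.3%.

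POLR3C in ES cells called 84 of the 105 solitary loci (80.0%, 71.1 to 87.2%), against 84.7% of all loci and 86.6% of the other loci. POLR3GL in ES cells called 42 (40.0%, 30.6 to 50.0%), against 62.9% of all loci and 72.1% of the others. In MEFs, POLR3C called 64 (61.0%, 50.9 to 70.3%), against 74.7% of all loci and 80.2% of the others. POLR3GL in MEFs called 55 (52.4%, 42.4 to 62.2%), against 71.7% and 79.4%. POLR3G in MEFs called 42 (40.0%, 30.6 to 50.0%), against 48.0% and 51.1%. Each of the 5 lists thus called a smaller share of solitary than of other loci, by the least for ES cell POLR3C and by the most for ES cell POLR3GL. For MEF POLR3GL this order turned with only peaks at or above the median score of their list (73.3 against 63.9%) and with loci of 1 list removed (94.9 against 91.3%). For ES cell POLR3C it turned, by under 1 point, with loci of 1 list removed (91.5 against 91.3%) and without the MEF POLR3C list (89.5 against 88.6%). Without chromosome 13 the shares of the other loci were 82.2, 64.4, 74.8, 73.6 and 54.0%, in the same order. The solitary shares were still the lower ones. The intervals overlapped in 3 of the 5 lists: ES cell POLR3C (75.5 to 87.7% for the others), MEF POLR3C (67.5 to 81.3%) and MEF POLR3G (46.0 to 61.8%). With chromosome 13 kept, they already overlapped for ES cell POLR3C (81.9 to 90.5% for the others) and MEF POLR3G (44.9 to 57.3%). For MEF POLR3C they then lay apart (74.8 to 84.8% for the others).

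**Figure D2:**
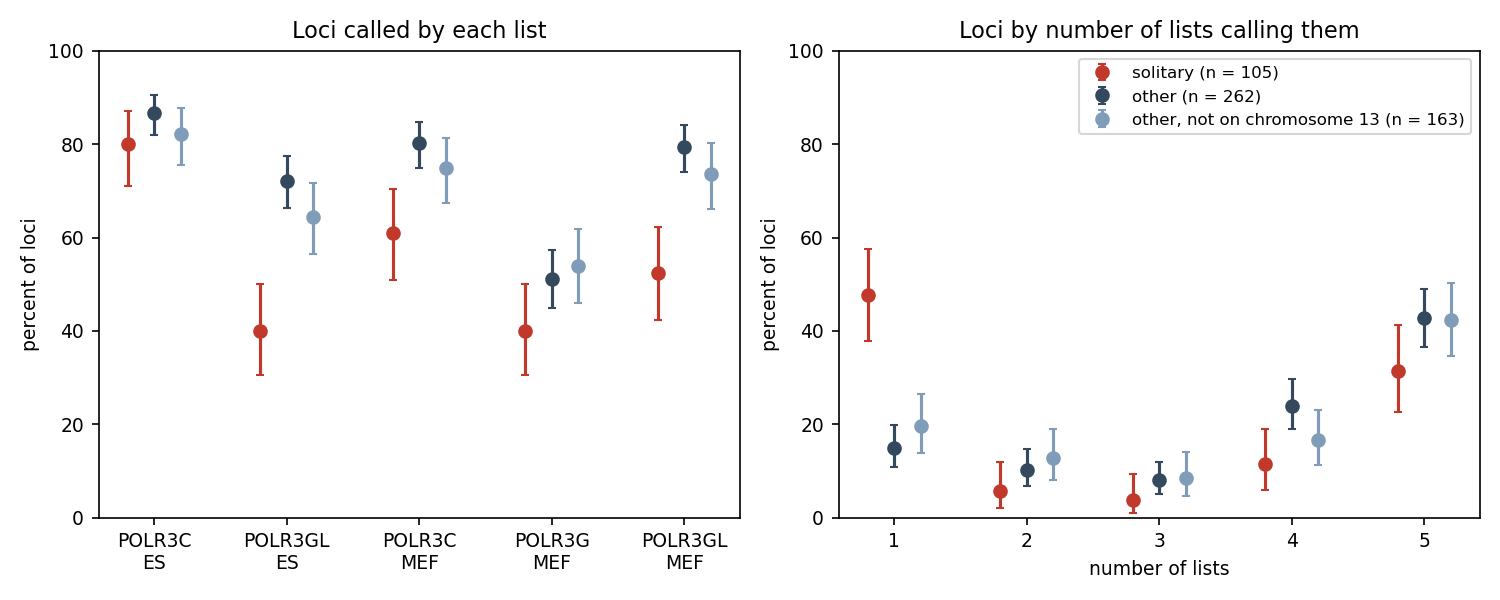
Percent of solitary loci and of other loci, with and without chromosome 13, called by each list; error bars are exact 95% intervals for counting error. The solitary share is the lowest in each list, from 40.0% (POLR3GL in ES cells and POLR3G in MEFs) to 80.0% (POLR3C in ES cells).

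In ES cells, 39 solitary loci had both POLR3C and POLR3GL, 45 had POLR3C without POLR3GL and 3 had POLR3GL without POLR3C. At the other loci these numbers were 175, 52 and 14. POLR3C without POLR3GL was thus found at 42.9% of solitary, 19.8% of other and 26.4% of all loci, and at 25.2% of the other loci off chromosome 13. Both were found at 37.1% of solitary, 66.8% of other and 58.3% of all loci. POLR3GL without POLR3C was found at 2.86, 5.34 and 4.63%. In MEFs, 50 solitary loci had both, 14 had POLR3C alone of the pair and 5 had POLR3GL alone. Of the 262 other loci, 186, 24 and 22 did so. In MEFs both were thus found at 47.6% of solitary, 71.0% of other and 64.3% of all loci. POLR3C alone of the pair was found at 13.3, 9.16 and 10.4%, and POLR3GL alone at 4.76, 8.40 and 7.36%. POLR3G in MEFs was called at 40 of the 50 solitary loci with both POLR3C and POLR3GL, and at 120 of the 186 other loci. It was called at 2 solitary loci without POLR3C and at none without POLR3GL. The latter allows a share of up to 3.45% of the 105 (upper end of the exact interval). Among the other loci, POLR3G lacked POLR3C at 14 and POLR3GL at 4. Over all 367 loci, POLR3G without POLR3GL was thus also rare, at 4 (1.09%).

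The 33 loci called by all 5 lists include the highest POLR3C peak of each cell type, which stood at 1 locus. The locus chr11:106874103-106874340 had a score of 3069 for ES cell POLR3C, 49 for ES cell POLR3GL, 319 for MEF POLR3C, 39 for MEF POLR3G and 86 for MEF POLR3GL. It ranked 1st in both POLR3C lists, 12th for ES cell POLR3GL, 12th for MEF POLR3G and 3rd for MEF POLR3GL, so it was near the top of every list. The locus chr3:90279743-90279968 scored 2886, 53, 236, 40 and 81 in the same order of lists, and the locus chr6:86353766-86353990 scored 2782, 56, 234, 32 and 60. Both stood among the first 10 of both ES cell lists, but at percentiles of 68.7 and 66.7 for POLR3C in MEFs.

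In MEFs the first of these loci was also the highest solitary one for POLR3C and POLR3GL, and several others stood close behind it. The locus chr7:86611257-86611481 scored 2275, 41, 281, 41 and 77 and was 7th for MEF POLR3C, 6th for MEF POLR3G and 7th for MEF POLR3GL. The locus chr10:30530827-30531055 scored 2249, 37, 237, 42 and 69, and its POLR3G peak was the highest of the solitary loci, at 4th in that list. The locus chr10:79711780-79712003 scored 2041, 29, 262, 36 and 78, and stood at percentile 97.9 for POLR3GL in MEFs but at 42.2 for POLR3GL in ES cells. The locus chr18:36961452-36961675 was 4th for MEF POLR3C with a score of 302 and 7th for MEF POLR3GL with 77, yet had a POLR3C percentile of 38.6 in ES cells and no ES cell POLR3GL peak. Of the peaks ranked 10th or better, ties included, solitary loci held 3 for ES cell POLR3C, 2 for ES cell POLR3GL, 4 for MEF POLR3C, 4 for MEF POLR3G and 5 for MEF POLR3GL. The other loci held 7, 7, 7, 7 and 6 in the same order of lists. Of all autosomal peaks of these lists, 27.0, 18.2, 23.4, 23.9 and 20.9% were at solitary loci. The top counts are small and were not tested against these shares.

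At the loci with 4 or 5 lists the median percentile was 56.5 for POLR3C and 42.2 for POLR3GL in ES cells, while in MEFs it was 66.7 (POLR3C), 52.0 (POLR3G) and 62.5 (POLR3GL). These loci thus stood around or above the middle of every list except ES cell POLR3GL. The 12 loci with 4 lists all had POLR3C in both cell types and POLR3GL in MEFs. They lacked ES cell POLR3GL at 7 loci and MEF POLR3G at 5. At the other loci with 4 lists the missing list was MEF POLR3G at 52 of 63 and ES cell POLR3GL at 3.

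The 50 loci with 1 list were mostly low peaks of POLR3C. ES cell POLR3C alone called 33, with scores from 260 to 1911, a median of 338 and a median percentile of 9.94. MEF POLR3C alone called 11, with scores from 41 to 73, a median of 50 and a median percentile of 4.18. ES cell POLR3GL alone called 3, with scores of 15, 20 and 20, and MEF POLR3GL alone called 3, with scores of 16, 18 and 20. MEF POLR3G alone called none. All but 1 of these peaks were in the bottom quartile of their list. The exception was chr9:35112820-35113033, whose ES cell POLR3C score of 1911 placed it at percentile 67.5 with no peak in the other 4 lists. The next highest loci of this kind, chr7:25664488-25664701 and chr2:168136402-168136615, scored 637 and 585 and stood at percentiles 21.8 and 20.5.

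Over all their peaks, solitary loci ranked low for ES cell POLR3C and near the middle in MEFs. Their median percentile was 25.9 for POLR3C and 36.6 for POLR3GL in ES cells, where the other loci had 57.3 and 52.7. In MEFs it was 53.0 (POLR3C), 49.3 (POLR3G) and 53.2 (POLR3GL), where the other loci had 49.8, 52.0 and 48.9. Without chromosome 13 the other loci stood at 53.3 and 56.6 in ES cells and at 61.0, 57.8 and 62.5 in MEFs, so that solitary loci then ranked lower in all 5 lists, and the order turned for MEF POLR3C and POLR3GL. In the bottom quartile of the ES cell POLR3C list, 42 of its 75 autosomal peaks (56.0%, 44.1 to 67.5%) were solitary. In the next quartiles upwards they were 15 of 78 (19.2%), 13 of 80 (16.3%) and, at the top, 14 of 78 (17.9%). In the MEF POLR3C list the solitary shares of the 4 quartiles, from the bottom up, were 26.1, 16.9, 27.7 and 23.2%, with no such step.

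**Figure D3:**
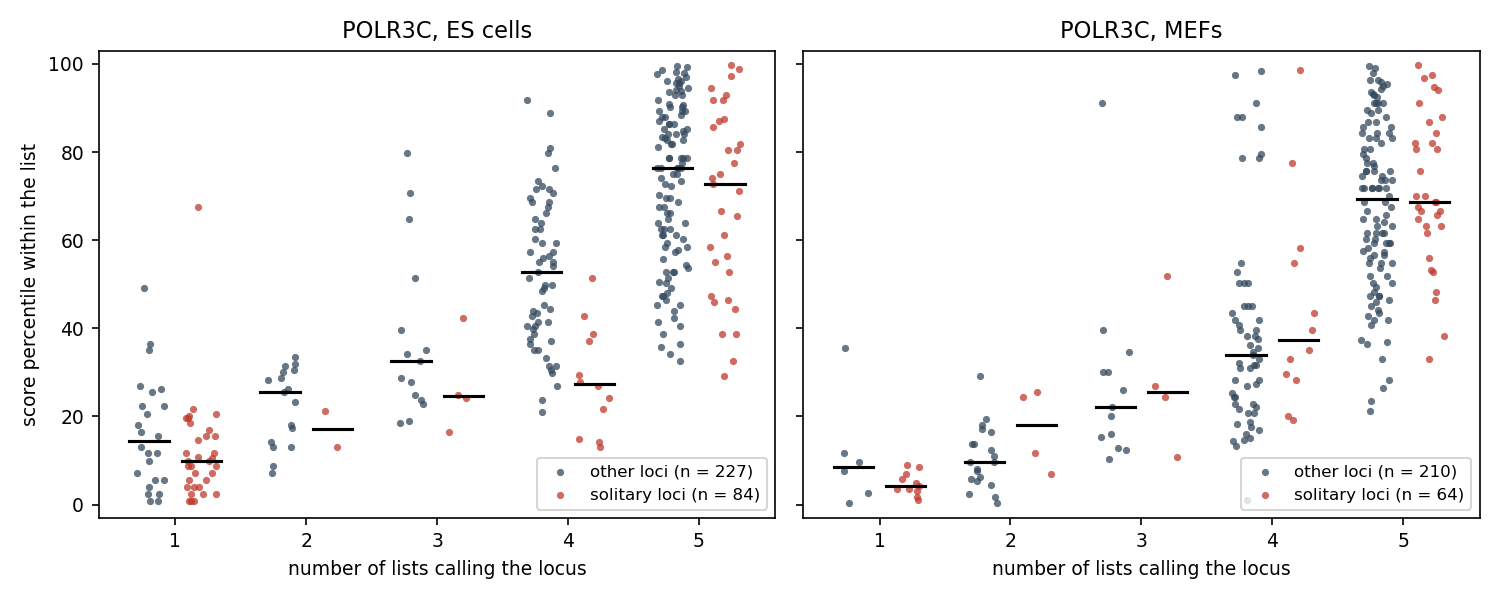
Score percentile of each solitary peak (points) by the number of lists that called its locus, for POLR3C in ES cells and in MEFs, with medians. Loci with 1 list have medians of 9.94 in ES cells and 4.18 in MEFs, and loci with 4 or 5 lists have 56.5 and 66.7.

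The height of the ES cell POLR3C peak went together with the other calls at a solitary locus. Of the 42 solitary loci in the bottom quartile of that list (scores of 260 to 741), 10 were called in MEFs (23.8%, 12.1 to 39.5%) and 1 had an ES cell POLR3GL peak. In the 3 quartiles above it, from low to high, 15 of 15, 12 of 13 and 14 of 14 were called in MEFs. POLR3GL peaks in ES cells were found at 12 of 15, 12 of 13 and 14 of 14 of these. The other loci had the same shape, with 15 of 33 called in MEFs in the bottom quartile and 56 of 63, 67 of 67 and 64 of 64 above it. The solitary locus of the upper quartiles that no MEF list called was again chr9:35112820-35113033.

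A similar step was seen for POLR3G in MEFs. Of the 55 solitary loci with a MEF POLR3GL peak, 42 had a MEF POLR3G peak (76.4%, 63.0 to 86.8%), and at the other loci 130 of 208 did (62.5%, 55.5 to 69.1%). By quartile of the POLR3GL score, from the bottom up, the solitary loci had POLR3G at 4 of 15, 9 of 10, 14 of 15 and 15 of 15. The other loci had it at 3 of 52, 34 of 58, 56 of 59 and 37 of 39. With chromosome 13 set aside they had it at 1 of 20, 14 of 25, 38 of 41 and 32 of 34. POLR3G was thus less often called under low POLR3GL peaks than under high ones in each of these sets of loci. The shares of solitary and other loci were 26.7 and 5.77% in the bottom quartile and 90% and 58.6% in the next, but over 10 to 15 solitary loci the intervals overlapped, and the difference was not tested.

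Peaks were merged into a locus because they overlapped, so the closeness of peaks in a locus follows in part from the rule. The distance between their centres is given as a description. The median distance between peak centres was 7 bp for POLR3C in ES cells and MEFs, and 42 of 51 loci had the centres within 50 bp. Over the 10 pairs of lists the medians lay between 7 and 18.5 bp. At the other loci they lay between 11 and 20 bp. Scores of 2 subunits in the same cells were correlated to different degrees across solitary loci. Pearson's r was 0.85 (Spearman's rho 0.83) for POLR3C and POLR3GL in ES cells over 39 loci, 0.86 (0.82) for the same pair in MEFs over 50 loci, 0.78 (0.78) for POLR3G and POLR3GL in MEFs over 42 loci, and 0.54 (0.50) for POLR3C and POLR3G in MEFs over 40 loci. Between cell types the values were 0.64 (0.63) for POLR3C over 51 loci and 0.67 (0.70) for POLR3GL over 38. These are descriptions across loci that share their libraries, and no test was made.

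Pol III was found in both cell types at 51 solitary loci (48.6%, 38.7 to 58.5%), against 72.5% of all loci and 215 of the 262 other loci (82.1%, 76.9 to 86.5%), or 76.1% of those off chromosome 13. The gap narrowed to 62.2 against 64.6% with only peaks at or above the median score of their list, and to 91.5 against 96.8% with loci of 1 list removed. It was found only in the ES cell lists at 36 (34.3%, against 9.92% of the other loci) and only in the MEF lists at 18 (17.1%, against 8.02%). Each of the 51 shared loci had POLR3C in both cell types. POLR3GL was in both at 38 solitary loci (36.2%, against 60.8% of all loci and 70.6% of the others). It was only in MEFs at 17 (16.2%, against 10.9 and 8.78%) and only in ES cells at 4 (3.81%, against 2.18 and 1.53%). POLR3GL in MEFs only was thus more frequent than in ES cells only at the other loci too. By distance to the nearest neighbour, Pol III was in both cell types at 8 of 21 loci (0.2 to 1 Mb), 16 of 39 (1 to 5 Mb) and 27 of 45 (above 5 Mb). The exact intervals of these shares overlap (18.1 to 61.6%, 25.6 to 57.9% and 44.3 to 74.3%).

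Loci of 1 cell type rested on little. The 36 loci seen only in ES cells were all called by 1 list, so none had both POLR3C and POLR3GL. Of the 18 seen only in MEFs, 4 had 2 lists. The locus chr11:62559384-62559607 had POLR3C at 157 and POLR3GL at 22, and chr11:102995606-102995829 had POLR3C at 161 and POLR3GL at 20. The locus chr1:87489654-87489807 had POLR3G at 15 and POLR3GL at 16, and chr3:145309389-145309558 had both at 22. These last 2 were the solitary loci with POLR3G but without POLR3C. The POLR3GL peaks at all 4 were at or under percentile 7.01 of their list, and the 2 POLR3C peaks were at percentiles 24.4 and 25.6.

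At loci called in both cell types, ranks shifted in either direction. The POLR3C percentile in MEFs minus that in ES cells had a median of 5.41 points over 51 solitary loci, with 29 higher in MEFs and 15 more than 25 points apart. At the other loci the median was −11.4 points, with 58 of 194 higher in MEFs, and without chromosome 13 it was −3.56 points, with 46 of 108 higher. For POLR3GL the median shift was 12.3 points over 38 solitary loci, with 27 higher in MEFs, against 0.37 points at the other loci, with 95 of 185 higher, and 8.84 points without chromosome 13, with 71 of 102 higher. A percentile depends on the whole of each list, and the ES cell POLR3C list has 317 peaks against 275 in MEFs, so these shifts are in rank and not in amount bound.

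Among loci with all 5 lists, chr19:3576223-3576448 moved up most in MEFs for both subunits. Its scores were 1248 for ES cell POLR3C, 22 for ES cell POLR3GL, 255 for MEF POLR3C, 32 for MEF POLR3G and 62 for MEF POLR3GL. Its percentile went from 38.6 to 88.0 for POLR3C and from 15.0 to 77.1 for POLR3GL. The loci chr7:29157883-29158117 and chr7:105963935-105964317 stood 45.7 and 35.5 points higher in MEFs for POLR3C, and chr10:127895417-127895651 and chr10:79711780-79712003 stood 58.5 and 55.7 points higher for POLR3GL. In the opposite direction, chr12:72069990-72070290 scored 2535, 43, 218, 32 and 51 in the same order of lists. Its percentile went from 94.6 in ES cells to 53.3 in MEFs for POLR3C, and from 87.9 to 53.2 for POLR3GL. The loci chr2:27395321-27395577 and chr6:86353766-86353990 stood 31.3 and 30.6 points higher in ES cells for POLR3C.

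**Figure D4:**
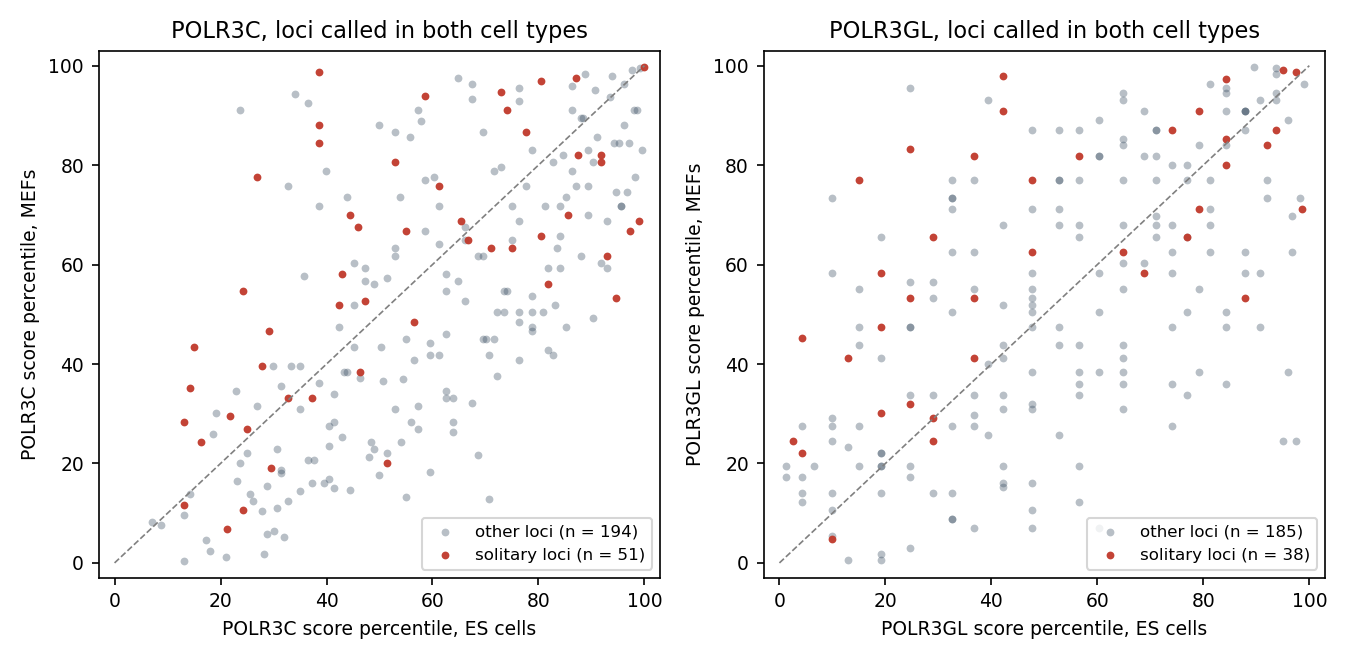
Score percentile in ES cells (x axis) against MEFs (y axis) at loci called in both cell types, for POLR3C (51 solitary loci) and POLR3GL (38 solitary loci), with the other loci behind and a dashed line of equal rank. Solitary loci lie on both sides of the line, with 29 of 51 above it for POLR3C and 27 of 38 for POLR3GL.

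POLR3G in ES cells, the paralog known from pluripotent cells, was met at 1 solitary locus. That list held 13 peaks, of which 3 were autosomal. The locus was chr13:4560531-4560672, where the POLR3G score was 18 and an ES cell POLR3GL peak scored 20, with no peak of POLR3C in either cell type. None of the 262 other loci overlapped an ES cell POLR3G peak, which allows a share of up to 1.40%. A list this short sets no level for POLR3G in ES cells, and its depth is not known. The other loci called by ES cell POLR3GL alone were chr4:145029784-145029925 and chr4:145740342-145740483, with scores of 20 and 15. Those called by MEF POLR3GL alone were chr18:35025154-35025301, chr1:135971295-135971442 and chr15:101106361-101106508, with scores of 20, 18 and 16.

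Pol II, the enzyme of protein-coding genes and of several small RNA genes, was found on 69 of the 105 solitary loci in at least 1 cell type (65.7%, 55.8 to 74.7%), and on 90 of the 262 other loci (34.4%, 28.6 to 40.4%). This share was 43.3% over all loci and 46.0% (38.2 to 54.0%) at the other loci off chromosome 13. A Pol II peak of ES cells overlapped 53 of the 105 (50.5%, 40.5 to 60.4%), against 32.2% of all loci and 65 of the 262 other loci (24.8%, 19.7 to 30.5%). A Pol II peak of MEFs overlapped 42 (40.0%, 30.6 to 50.0%), against 28.6% of all loci and 63 other loci (24.0%, 19.0 to 29.7%). Without chromosome 13 the other loci stood at 31.3% (24.3 to 39.0%) in ES cells and 35.0% (27.7 to 42.8%) in MEFs. The intervals of solitary and other loci then still lay apart in ES cells and overlapped in MEFs. The 53 and 42 solitary loci met as many distinct Pol II peaks, while the 65 and 63 other loci shared 51 distinct Pol II peaks in each cell type. The ES cell Pol II list held 32345 peaks and that of MEFs 13306, so overlap is not comparable in size between the cell types.

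The difference was clearest at overlap and within 1 kb, and was smaller or reversed at larger distances. Within 1 kb of a Pol II peak lay 56.2% of solitary and 34.7% of other loci in ES cells, and 50.5 and 31.3% in MEFs. Without chromosome 13 the other loci stood at 45.4% in each cell type. Within 5 kb of a Pol II peak lay 64.8% of solitary and 49.6% of other loci in ES cells, and 56.2 and 49.2% in MEFs. Within 50 kb these were 90.5 and 91.2% in ES cells and 82.9 and 90.5% in MEFs. With chromosome 13 left out, 65.0% of the other loci lay within 5 kb of Pol II in MEFs and 95.1% within 50 kb, both above the solitary loci. The MEF intervals lay apart at 50 kb (90.6 to 97.9% for the others, 74.3 to 89.5% for solitary loci) and overlapped at 5 kb. In ES cells the other loci off chromosome 13 stood at 58.3% within 5 kb and 87.1% within 50 kb. Both were below the solitary loci, with overlapping intervals. The solitary loci farthest from Pol II were chr9:102851036-102851249 in ES cells, at 213 kb, and chr1:175320356-175320569 in MEFs, at 757 kb, and each had an ES cell POLR3C peak only.

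Solitary loci with 4 or 5 lists met Pol II most often. In each cell type 30 of these 45 overlapped a Pol II peak (66.7%, 51.0 to 80.0%). In at least 1 cell type 40 of 45 did so (88.9%, 75.9 to 96.3%), against 43.3% of all 367 loci, whatever their number of lists. Of all 220 loci with 4 or 5 lists, 80 overlapped Pol II in ES cells and 73 in MEFs. The other loci with 4 or 5 lists overlapped Pol II at 50 of 175 in ES cells (28.6%) and 43 of 175 in MEFs (24.6%), and without chromosome 13 at 38 of 96 (39.6%) and 37 of 96 (38.5%). Solitary loci with 1 list overlapped it at 18 of 50 in ES cells (36.0%) and 7 of 50 in MEFs (14%), and other loci with 1 list at 5 of 39 (12.8%) and 8 of 39 (20.5%). The larger share at solitary loci was thus found at loci with many lists in both cell types, and at loci with 1 list in ES cells alone.

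**Figure D5:**
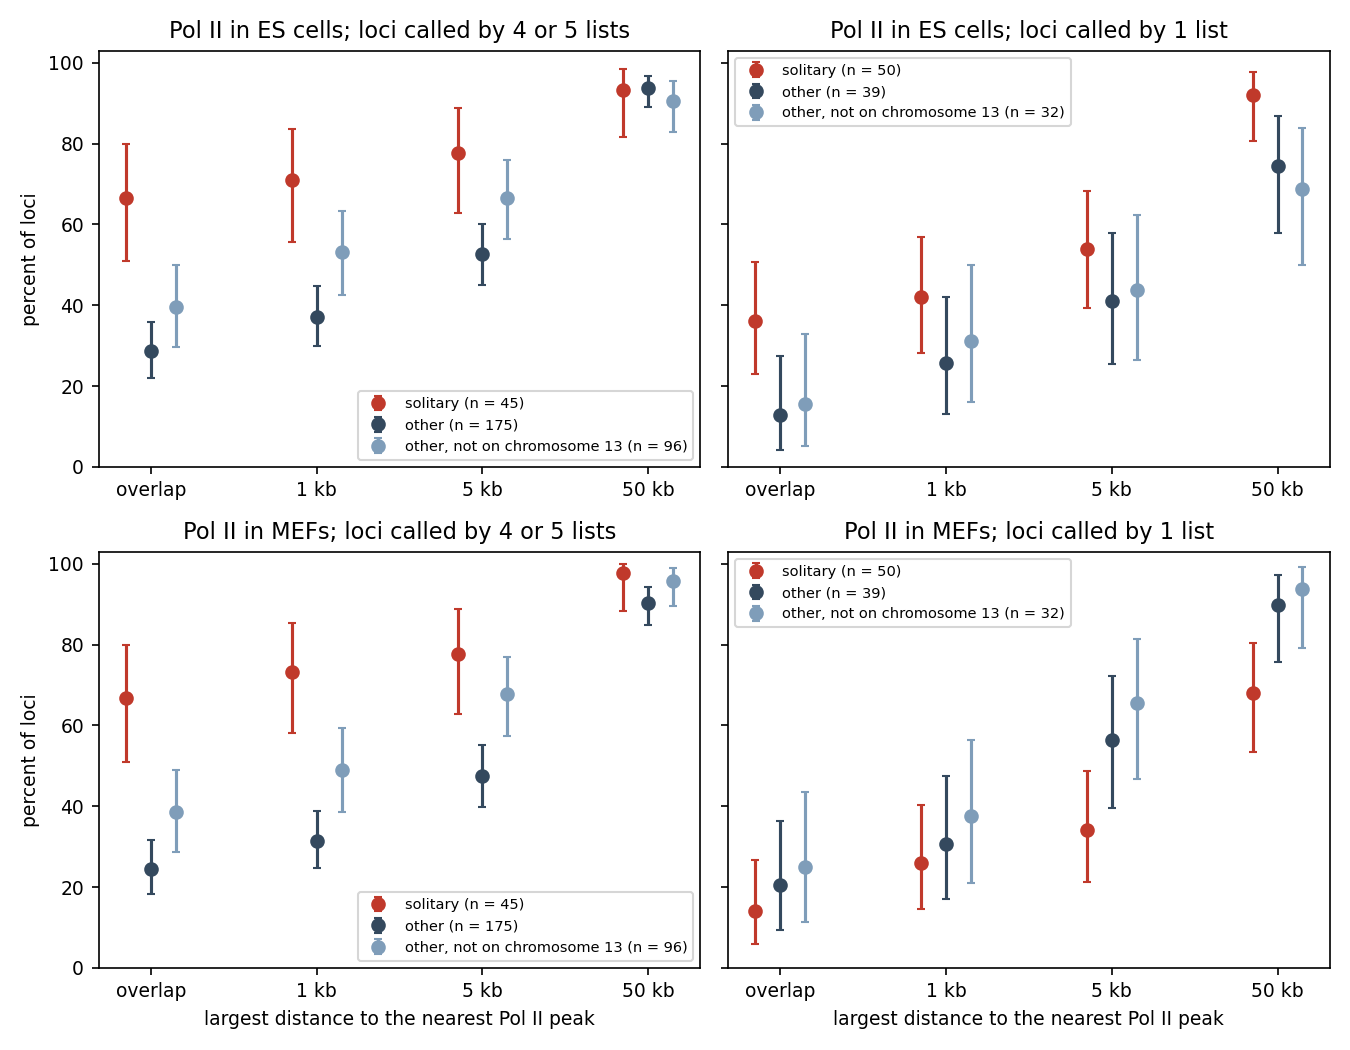
Percent of loci that overlap a Pol II peak or lie within 1, 5 or 50 kb of one, in ES cells and MEFs, for loci called by 1 list and by 4 or 5 lists; error bars are exact 95% intervals for counting error. At loci with 4 or 5 lists, 66.7% of the solitary ones overlap Pol II in each cell type, against 28.6 and 24.6% of other loci, while within 50 kb the shares are 93.3 and 97.8% against 93.7 and 90.3%.

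The Pol II peaks that met solitary loci were of ordinary width and moderately high score. Their median width was 1132 bp (ES cells) and 1075 bp (MEFs), and their median score percentile within the Pol II list was 70.3 and 72.1. Pol II peaks that met the other loci had median percentiles of 62.2 and 55.8, and off chromosome 13 of 69.0 and 57.4. The centre of the solitary Pol III locus lay a median of 298 bp (ES cells) and 293 bp (MEFs) from that of the Pol II peak. At the other loci these medians were 323.5 and 343 bp. Only overlapping loci were measured, which limits the distance in advance, and a preferred position within the peak was not tested. The locus chr2:27395321-27395577, called by all 5 Pol III lists with scores of 2483, 35, 229, 21 and 54, lay in an ES cell Pol II peak 4345 bp wide with a Pol II score of 1807. Its MEF Pol II peak scored 94.4 and stood at percentile 35.7, against 97.3 in ES cells. The locus chr6:38483809-38484039, with Pol III scores of 2457, 41, 250, 40 and 68, met Pol II peaks at percentiles 97.2 in ES cells and 95.03 in MEFs. The strongest solitary Pol III locus, chr11:106874103-106874340, met Pol II peaks at percentiles 41.6 and 80.4, so a top Pol III rank stood beside a middling Pol II rank in ES cells.

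Calls of Pol II were then set beside the cell type in which Pol III was called. Of the 51 loci with Pol III in both cell types, 24 overlapped Pol II in both, 10 in ES cells alone, 10 in MEFs alone and 7 in neither. Of the 36 with Pol III only in ES cells, 1 overlapped Pol II in both, 14 in ES cells alone, 3 in MEFs alone and 18 in neither. Of the 18 with Pol III only in MEFs, the numbers were 1, 3, 3 and 11. Solitary loci called only in ES cells thus met Pol II more often in ES cells than in MEFs, which was not seen for those called only in MEFs. At the 26 other loci called only in ES cells, Pol II overlapped 2 in ES cells alone and 8 in MEFs alone, the opposite order. Of the 33 loci called by ES cell POLR3C alone, 15 overlapped an ES cell Pol II peak (45.5%) and 4 a MEF Pol II peak (12.1%). Of the 11 called by MEF POLR3C alone, 0 overlapped Pol II in ES cells and 2 did in MEFs. The ES cell Pol II list is the longer one, and its part in these counts was not tested.

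At 20 solitary loci an ES cell Pol II peak overlapped and no MEF Pol II peak lay within 5 kb, and at 12 the reverse was found. No such count is given here for the other loci, and the ES cell Pol II list is the longer one. By overlap alone, Pol II was in ES cells only at 25.7% of solitary, 14.7% of all and 10.3% of the other loci. It was in MEFs only at 15.2, 11.2 and 9.54%. Off chromosome 13 the other loci stood at 11.0% (ES cells only) and 14.7% (MEFs only). Of the 20, 6 had 4 or 5 Pol III lists and 13 had 1. Of the 12, 7 had 4 or 5 lists and 4 had 1. The highest Pol II score of the first kind was at chr18:35025154-35025301, where Pol III was seen only as a MEF POLR3GL peak of 20. Its ES cell Pol II score was 3100, at percentile 99.4, and the nearest MEF Pol II peak was 19.5 kb away. At chr3:145309389-145309558, which had POLR3G and POLR3GL in MEFs at 22 each, the Pol II peak was likewise in ES cells, with a score of 1744, and 31.1 kb away in MEFs. At these 2 loci Pol III and Pol II were thus each called in a different cell type.

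The reverse was led by chr9:35112820-35113033, the locus with an ES cell POLR3C score of 1911 and no other Pol III peak. It overlapped a MEF Pol II peak with a score of 2569, at percentile 99.96 of that list, while the nearest ES cell Pol II peak was 36.9 kb away. The loci chr12:3109925-3110138 and chr10:126749587-126749800, with ES cell POLR3C scores of 533 and 442 as their only Pol III peaks, met MEF Pol II peaks at percentiles 99.2 and 97.7. Their nearest ES cell Pol II peaks were 125 and 15.6 kb away. The 3 highest MEF Pol II peaks on solitary loci were therefore all at loci where Pol III had been called by ES cell POLR3C alone. High MEF Pol II peaks were also found at the other loci called by ES cell POLR3C alone, so this was not particular to solitary loci. Their median percentile was 97.0 over 7 such loci, against 98.5 over the 4 solitary ones. At chr5:150040456-150040719, by contrast, all 5 Pol III lists had a peak, with scores of 1482, 25, 198, 22 and 57, and Pol II overlapped in MEFs with its nearest ES cell peak at 8.44 kb.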

How the data were processed

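ChIP-seq libraries of ES-E14TG2a cells and primary MEFs were made with about 10 µg of antibody and chromatin fragments of 200 to 700 bp, per the labels' protocols. CASAVA 1.8, Bowtie, SAMtools, HOMER and the build mm9 are named in the submitters' processing notes. Calling thresholds, the control used for calling, pooling and read depth are unknown here, since no source at hand gives them, so the precision of a single peak is unknown. The 8 deposited peak lists give a position and 1 score per peak, whose scale the authors do not state. The 2 input libraries were not analysed here.

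Peaks of 5 lists were merged at 1 bp of overlap, on autosomes, and loci without a neighbour within 200 kb were kept. Starts were read as 0-based and are printed 1-based. Percentile is the mid-rank of a score in its whole list, and quartiles were cut on the whole list. A peak called by a list was counted once per locus, and Pol II distance was measured edge to edge. The merging and distance steps were checked on 20 random interval sets against a direct count, with 0 disagreements. Shares have exact 95% intervals. With 1 library per antibody and cell type, no test between groups was made. Loci were named by rule: the highest scores per list, loci of 1 cell type with 2 or more lists, loci without POLR3C, those next to the 200 kb limit, the most remote, those with the highest or most distant Pol II peaks, the highest with 1 list, those with Pol II in 1 cell type and those with the largest rank shifts. The members, the rule and the lists were chosen with earlier results of these data known, and the comparison with other loci off chromosome 13 was chosen after seeing the data. Alternatives were other isolation distances, other merging, higher scores only, loci with 2 or more lists only, all chromosomes, each list left out and other Pol II limits. Python 3.11.15, numpy 2.4.6, pandas 2.3.3, scipy 1.17.1 and matplotlib 3.10.9 were used.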

Additional observations from a re-analysis of the deposited data

How the results depend on the processing

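Over 15 alternatives, 85 of 110 recomputed values were counted as having stayed and 25 as having moved. A share or median stayed if it lay inside the 95% interval of the reported value, and a number of loci if within a set factor of it. This criterion is loose: 75 solitary loci without the ES cell POLR3C list, against 105, counted as having stayed. Merging only where at least 50% of the shorter peak overlapped left each value unchanged, and these values are among the 85. The number of solitary loci ranged from 45 to 118. With only peaks at or above the median score of their list, 45 loci were solitary. Of these, 73.3% overlapped Pol II in ES cells and 71.1% in MEFs, 62.2% were called in both cell types, 80.0% by 2 or more lists and 73.3% by MEF POLR3GL, and the median POLR3C percentile was 74.5 in ES cells and 70.9 in MEFs. With loci of 1 list removed first, 59 were solitary. Their Pol II overlap was 64.4% in ES cells and 62.7% in MEFs, 91.5% were in both cell types, 91.5% were called by ES cell POLR3C, 94.9% by MEF POLR3GL and, by construction, 100% by 2 or more lists, and their median ES cell POLR3C percentile was 53.9. Without the ES cell POLR3C list, 52.0% overlapped Pol II in MEFs, 74.7% had 2 or more lists and 77.3% had MEF POLR3GL. Without the MEF POLR3C list, 89.5% were called by ES cell POLR3C. With Pol II peaks at or above their median score, overlap was 37.1% in ES cells and 30.5% in MEFs. Counting Pol II within 1 kb gave 50.5% in MEFs, and within 5 kb it gave 64.8% in ES cells and 56.2% in MEFs.

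The Pol II share was above that of the other loci in each of the 15 alternatives in both cell types. None of these left out the other loci of chromosome 13. Without them the order turned for MEF Pol II within 5 kb (solitary 56.2%, other 65.0%). At MEF overlap solitary loci stayed higher (solitary 40.0%, other 35.0%), but the intervals overlapped. The ES cell order held at overlap (solitary 50.5%, other 31.3%) and within 5 kb (solitary 64.8%, other 58.3%). The share called in both cell types was below that of the other loci in each of 12 alternatives. The gap was small with higher scores only (62.2 against 64.6%) and with loci of 1 list removed (91.5 against 96.8%). The MEF POLR3C percentile was above that of the other loci in 10 of 11, and below it with higher scores only (70.9 against 75.8) and when the other loci of chromosome 13 were left out (53.0 against 61.0). The shares called by ES cell POLR3C and by MEF POLR3GL were each above those of the other loci in 2 of 11. No paired analysis was possible because each antibody and cell type has 1 library and no value comes from a test. The lists give no depth, so a locus missing from a list is one without a call there and is not shown to be unbound.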

Other observations

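The ES cell POLR3C scores were not spread evenly. All 317 lay within 0.5 of a whole multiple of about 13, from 20 to 236 multiples, and no such step between 2 and 20 was found in the other 5 Pol III lists. Equal scores are therefore common in that list: the loci chr18:36961452-36961675, chr19:3576223-3576448 and chr7:29157883-29158117 all have a score of 1248.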
